A study of Mus musculus with 18 samples.

Results

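Cortex taken 28 d after transient middle cerebral artery occlusion (tMCAO) was set against cortex taken 24 h after it, in mice that had received an shRNA against Tiparp. The comparison holds 6 of the 18 libraries of the study, chosen by their labels: R28d_T1 to R28d_T3 (28 d) and R24h_T1 to R24h_T3 (24 h). The animals were male C57BL/6J mice of 8 to 10 weeks and 24.0 to 26.0 g. All of them carried an adeno-associated virus (AAV), injected into the left lateral ventricle 4 weeks before surgery, in which a synapsin promoter, active in neurons, drove the shRNA. The virus had thus been present longer at 28 d than at 24 h, which cannot be told apart from the time after tMCAO. The same age range is given for both times, so a difference in age cannot be set apart either. Tissue was the cortex on the operated side, by poly(A) RNA-seq. Beside them stand the same times in mice with a scramble shRNA, R28d_C and R24h_C (the control arm, n = 3 each), and sham surgery with the Tiparp shRNA, Sham_T (n = 3). The labels give no time after sham surgery. In tMCAO the artery that supplies lateral cortex and striatum is blocked and then reopened. Values are FPKM, fragments per kilobase of transcript scaled to the mapped fragments of the library. Where 3 values are given they are libraries 1, 2 and 3 of that group, and log2 differences are 28 d minus 24 h of log2(FPKM + 1) with their standard error (SE), n = 3 libraries each. Whether each library is a different mouse is not in the labels, and p-values speak of the spread among these libraries, which may be technical.

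At 24 h after ischaemia, cortex is known for stress and heat shock responses, chemokines, infiltrating leukocytes and silenced or hyperactive neurons. By several weeks, debris has been taken up by microglia and macrophages, astrocytes line the scar, and surviving neurons and oligodendrocytes are remodelled. Tiparp, also called PARP7, attaches single ADP-ribose units to proteins and is induced by the aryl hydrocarbon receptor, whose signalling it limits. In bulk tissue, fewer cells of a type and less RNA per cell cannot be told apart.

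Libraries differed within each time. R28d_T3 and R24h_T3 lay near sham: across genes, Pearson's r of each with the Sham_T libraries was 0.971 to 0.979, against 0.927 to 0.967 for the other 4. The median of 22 reactive astrocyte genes, relative to the Sham_T mean on the log2 scale, was 2.21, 1.39 and 0.29 in R28d_T1, R28d_T2 and R28d_T3, against 2.02, 2.83 and 0.65 in R24h_T1, R24h_T2 and R24h_T3. The median SD of a gene on the log2 scale was 0.151 in R28d_T, 0.224 in R24h_T and 0.102 in Sham_T. Defining markers of cortical neurons were present in every library, with Slc17a7, a vesicular glutamate transporter, at 91.0, 118 and 126 FPKM in R28d_T, against 141, 96.3 and 135 FPKM in R24h_T. Markers of neighbouring tissue moved with single libraries. Ttr, of the choroid plexus, was at 5.68, 712 and 9.37 FPKM in R28d_T, against 0.892, 8.32 and 8.52 FPKM in R24h_T, and at 624, 501 and 7.39 FPKM in Sham_T. Drd2, a dopamine receptor of striatal neurons, was at 8.90, 0.750 and 0.788 FPKM in R28d_T, against 0.914, 0.868 and 0.684 FPKM in R24h_T, and at 5.13, 7.65 and 16.8 FPKM in Sham_T. The Sham_T libraries that serve as the sham range thus held more of the striatal marker than every 28 d and 24 h library except R28d_T1, and 2 of them held choroid plexus. The part of this in the position of a gene relative to sham was not tested. The immunoglobulin light chain gene Igkc had 1085, 27.8 and 0.739 FPKM at 28 d and 17.7, 8.89 and 2.76 FPKM at 24 h. Mitochondrially encoded genes took 31.2% to 39.9% of all FPKM at 28 d and 29.2% to 41.4% at 24 h. The low values of shared genes put the depth of the libraries at 0.92 to 1.06 times that of R24h_T1, from a ratio at which only 8.75% to 9.90% of those genes lay, so depth is known roughly.

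Tiparp itself (ENSMUSG00000034640) was at 3.97, 4.06 and 3.72 FPKM at 28 d, against 3.99, 5.00 and 3.00 FPKM at 24 h, and at 4.17, 4.95 and 4.57 FPKM in the Sham_T libraries. The groups overlapped, with a log2 difference of -0.01 (exact two-sided permutation test, p = 0.9, where 3 libraries against 3 cannot go below 0.1). The control arm had 4.46, 3.59 and 3.77 FPKM in the R28d_C libraries, against 6.66, 4.60 and 8.65 FPKM in the R24h_C libraries. There the log2 difference was -0.60. At each time the libraries of the Tiparp arm overlapped with those of the control arm, at 24 h through R24h_T2 above R24h_C2 alone. The means at 24 h were 4.0 FPKM in R24h_T and 6.64 FPKM in R24h_C. Within the control arm, 28 d and 24 h did not overlap.

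Over all 13824 genes with at least 1 FPKM in at least 3 of the 6 libraries, none passed the test between the times (limma, Benjamini-Hochberg adjusted p under 0.05, 0% of genes), with a lowest adjusted p of 0.449. At an unadjusted p under 0.05 there were 683 genes with a higher and 436 with a lower level at 28 d. The genes are therefore described by whether the groups overlapped. All 3 R28d_T libraries lay above all 3 R24h_T libraries for 1062 genes (7.68%), and below them for 866 (6.26%). For a gene without a difference, 3 libraries against 3 separate in either direction with a probability of 0.1, by the 20 possible labellings. These counts are therefore not counts of changed genes. With FPKM rescaled without mitochondrially encoded genes these counts were 871 and 1065, and with median-ratio scaling 1109 and 1092. One fit over all 18 libraries, in which 6 groups share an estimate of the spread, put 74 genes higher (0.535%) and 23 lower (0.166%) at an adjusted p under 0.05. The groups did not overlap for any of these 97 genes. The filter was met through the 28 d libraries alone by 58 of the 1062 higher genes, and through the 24 h libraries alone by 37 of the 866 lower genes, which could therefore not overlap. That fit gives the wide R24h_T group the same spread as the narrow sham groups.

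Most genes that separated the times had a 24 h mean outside the range of the Sham_T libraries, and many had a 28 d mean outside it too. The share of all tested genes in each position is not given. Genes picked for separate groups can fall outside so narrow a range through that choice. Of the 1062 higher genes, 390 (36.7%) had a 28 d mean within the range of the Sham_T libraries and a 24 h mean below it, and 336 (31.6%) were above that range at 28 d and below it at 24 h. Of the 866 lower genes, 367 (42.4%) were within the sham range at 28 d and above it at 24 h, and 278 (32.1%) were below it at 28 d and above it at 24 h. Another 154 (14.5% of those higher) were above the range at 28 d and within it at 24 h, and 94 (10.9% of those lower) were below it at 28 d and within it at 24 h. At both times, 76 of the higher genes were below the range and 23 above it. Of the lower genes, 76 were above it at both times and 7 below it.

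Immediate early genes are transcribed within minutes of neuronal firing, and many encode transcription factors. Of 23 measured, the groups did not overlap for 5, each higher at 28 d (21.7%, against 7.68% of all genes), and for none lower. Egr2, counted among the 5, met the filter only through the 28 d libraries, so its groups could not overlap. The 7.68% holds genes of that kind too. The median log2 difference was 0.43, against -0.02 over all genes. Nr4a1, an orphan nuclear receptor, was at 28.9, 59.6 and 70.2 FPKM at 28 d, against 15.7, 17.6 and 17.5 FPKM at 24 h, and at 64.1, 73.0 and 72.9 FPKM in the Sham_T libraries. Its log2 difference was 1.5 ± 0.31 (limma, adjusted p = 0.484 and 0.04 in the fit over 18 libraries). The 24 h libraries lay close together, far below sham, and R28d_T1 was the lowest of the 28 d libraries. Egr1, a zinc finger factor, was at 57.4, 77.0 and 115 FPKM at 28 d, against 26.9, 46.4 and 38.4 FPKM at 24 h. Egr4 was at 5.17, 12.3 and 15.7 FPKM in R28d_T, against 3.73, 3.92 and 4.92 FPKM in R24h_T. Their log2 differences were 1.11 ± 0.29 and 1.10 ± 0.35, with adjusted p = 0.484 for Egr1 and 0.531 for Egr4 (limma), and in both genes R28d_T3 lay within the sham range and R28d_T1 below it. Fosb, an AP-1 subunit, was at 1.92, 3.34 and 4.32 FPKM at 28 d, against 1.33, 1.84 and 1.70 FPKM at 24 h. Egr2 was at 1.95, 4.58 and 4.77 FPKM at 28 d, against 0.190, 0.914 and 0.475 FPKM at 24 h, and met the filter only through the 28 d libraries, so its difference is given as values alone; 2 of the 3 Sham_T libraries lay between the times. Fos and Arc, the best known of the family, overlapped. Fos was at 11.3, 16.2 and 16.1 FPKM at 28 d, against 8.03, 19.4 and 5.25 FPKM at 24 h. Arc, a dendritic regulator of glutamate receptors, was at 30.9, 84.4 and 111 FPKM in R28d_T, against 15.0, 67.2 and 17.6 FPKM in R24h_T. R24h_T2 was above every 28 d library for Fos, and above R28d_T1 for Arc.

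The CArG box, bound by serum response factor, is the classical element through which activity reaches these genes. It was searched on both strands of the 250 bases before each start listed by RefSeq (GRCm38.p6), where 1.47% of all 32851 windows held it. Of the 5 higher genes, 4 had a window, and Egr2 held the box in 4 of its 5 windows, while Nr4a1, Egr4 and Fosb held none. None of the 14 overlapping immediate early genes with a window held it. Egr2, the only gene of the list found with the box, met the filter through the 28 d libraries alone. The cAMP response element TGACGTCA, in 1.55% of windows, was in none of the higher genes and in 2 of the overlapping ones. Of those 4, 3 overlap and hold the same box. The 2 windows that differ are shown, both on chromosome 10, plus strand, with the box in capitals 63 bases before the start.
Egr2, chr10:67537316-67537565: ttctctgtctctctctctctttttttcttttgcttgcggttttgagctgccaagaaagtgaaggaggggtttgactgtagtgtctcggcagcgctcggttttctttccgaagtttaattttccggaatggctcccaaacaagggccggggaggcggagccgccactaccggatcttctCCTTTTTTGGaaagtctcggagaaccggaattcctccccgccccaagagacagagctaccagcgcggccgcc
Egr2, chr10:67537619-67537868: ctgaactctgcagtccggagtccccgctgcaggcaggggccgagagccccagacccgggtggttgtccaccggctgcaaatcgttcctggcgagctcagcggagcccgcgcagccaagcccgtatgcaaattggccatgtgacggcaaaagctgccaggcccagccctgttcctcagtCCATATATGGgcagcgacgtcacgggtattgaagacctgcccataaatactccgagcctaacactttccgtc

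Clock genes run the daily rhythm of most cells, with Arntl (BMAL1) as the activator, Per2 and Ciart as repressors and Dbp as an output factor. The labels give no time of day for the tissue. Of 16 clock genes, 3 were higher without overlap (18.8%, against 7.68% of all genes) and 1 lower (6.25%, against 6.26%). Per2 was at 10.7, 10.9 and 15.9 FPKM at 28 d, against 5.51, 6.28 and 5.05 FPKM at 24 h, with a log2 difference of 1.01 ± 0.18 (limma, adjusted p = 0.474, and 0.0263 in the fit over 18 libraries). Dbp was at 29.8, 26.6 and 18.8 FPKM at 28 d, against 10.1, 10.2 and 14.8 FPKM at 24 h. Ciart was at 10.1, 12.1 and 9.77 FPKM at 28 d, against 8.57, 6.32 and 5.78 FPKM at 24 h. The 1 lower gene was Arntl, at 2.96, 2.74 and 3.98 FPKM in R28d_T, against 5.33, 6.52 and 4.47 FPKM in R24h_T. Per2, Dbp and Arntl at 28 d lay near or within the sham range, with Sham_T at 10.7, 11.6 and 14.5 FPKM for Per2, 19.4, 28.9 and 26.7 FPKM for Dbp and 3.35, 3.00 and 3.66 FPKM for Arntl. The E-box CACGTG, to which the activator binds, is in 6.02% of the windows. Dbp and Ciart had a window among the higher genes, and Ciart held 3 copies, 111, 53 and 39 bases before its start on chromosome 3, minus strand, shown in capitals, while Dbp and both windows of Arntl held none, and 4 of 11 overlapping clock genes held one or more.
Ciart, chr3:95882229-95882478: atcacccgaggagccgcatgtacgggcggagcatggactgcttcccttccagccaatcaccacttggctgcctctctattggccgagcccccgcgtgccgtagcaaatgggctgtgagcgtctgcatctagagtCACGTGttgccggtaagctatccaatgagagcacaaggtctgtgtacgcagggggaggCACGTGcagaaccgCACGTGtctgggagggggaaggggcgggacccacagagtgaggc

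**Figure D1:**
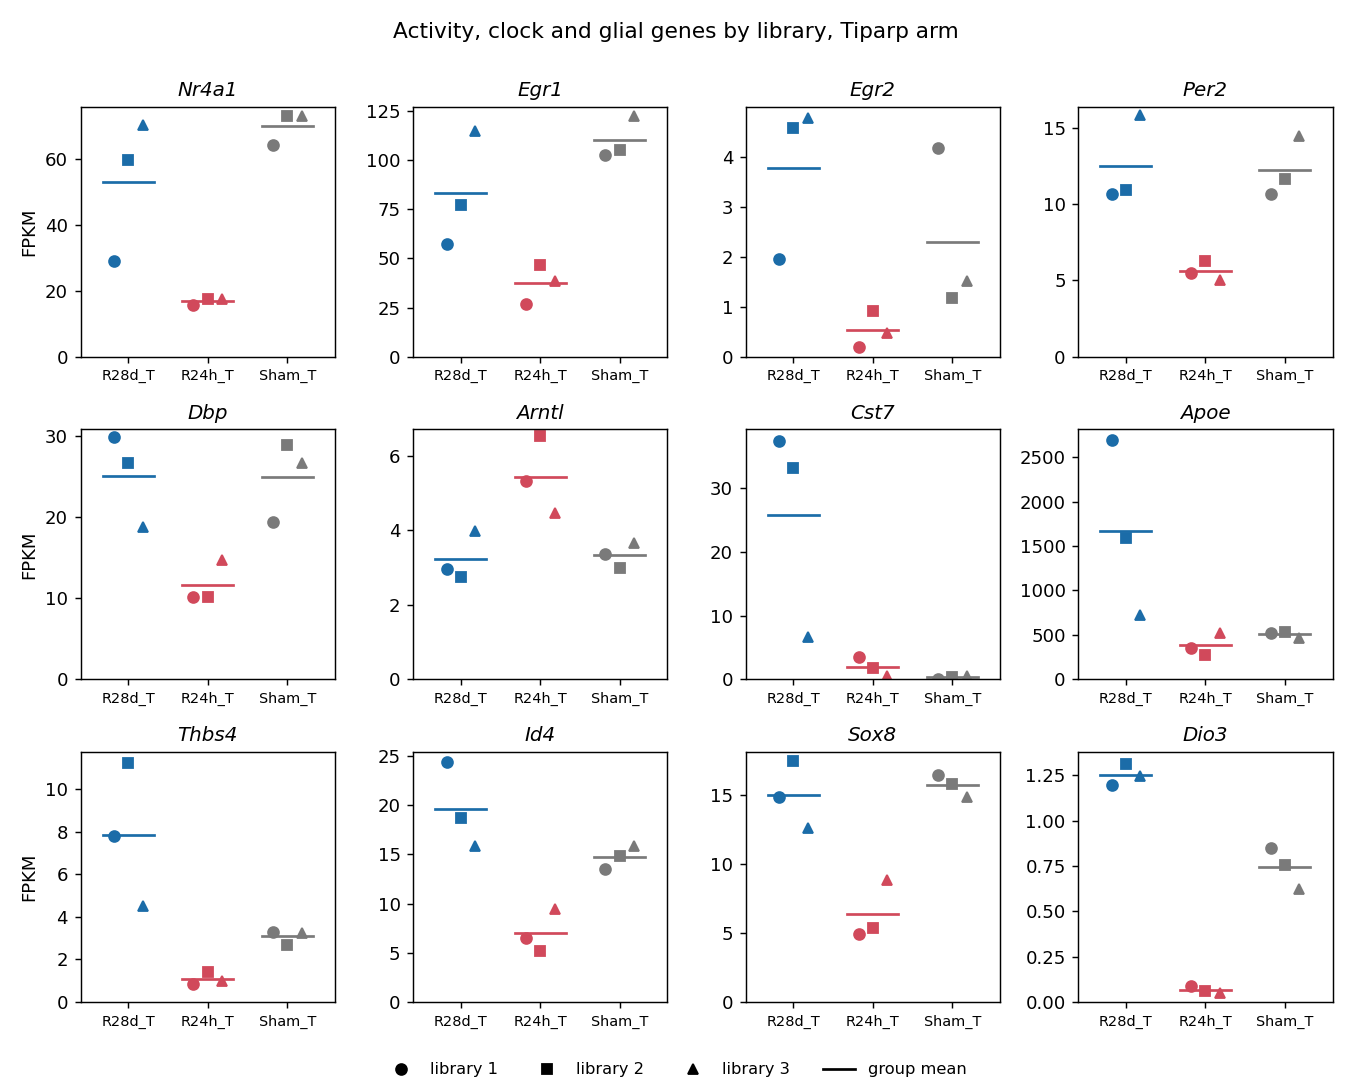
FPKM of 12 genes in each library of the R28d_T, R24h_T and Sham_T groups, with a circle, a square and a triangle for libraries 1, 2 and 3 and the group mean as a line. In each of these panels except Arntl, which is reversed, the 3 R28d_T points lie above the 3 R24h_T points, and for Per2 and Dbp the 28 d points overlap with sham.

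Microglia, the resident phagocytes of the brain, and their disease-associated state are described here by their marker lists. Of 21 disease-associated microglia genes, 3 were higher at 28 d without overlap (14.3%, against 7.68% of all genes) and none lower, and 19 had a higher mean. Cst7, an inhibitor of cysteine proteases, was at 37.3, 33.1 and 6.63 FPKM at 28 d, against 3.56, 1.74 and 0.507 FPKM at 24 h, a ratio of means of 13.3, and the Sham_T libraries were at 0.0625, 0.418 and 0.456 FPKM. The difference was 3.02 ± 0.66 (limma, adjusted p = 0.484). Apoe, the lipid carrier that microglia and astrocytes secrete, was at 2690.0, 1586 and 718 FPKM at 28 d, against 354, 273 and 526 FPKM at 24 h, with Sham_T at 523, 537 and 461 FPKM. Its log2 difference was 1.97 ± 0.48, and the adjusted p was 0.484 with limma and 0.0405 in the fit over 18 libraries. Trem2, the lipid-sensing receptor of this state, was at 17.9, 13.6 and 4.89 FPKM at 28 d, against 4.01, 2.74 and 3.67 FPKM at 24 h. In all 3 genes R28d_T3 was the lowest 28 d library and still lay above the highest 24 h library. Outside the disease-associated list, Lag3, an MHC class II binding receptor, was at 23, 16.8 and 6.66 FPKM in R28d_T, against 3.19, 3.87 and 4.82 FPKM in R24h_T. Padi2, which converts arginine to citrulline in proteins and is outside that list too, was at 23.4, 17.8 and 6.17 FPKM at 28 d, against 3.04, 2.80 and 4.17 FPKM at 24 h. Bulk values do not give the cell type in which it was expressed.

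Homeostatic microglia genes pointed the same way: 3 of 12 were higher without overlap (25%, against 7.68% of all genes) and none lower. Gpr34, a lysophospholipid receptor, was at 8.11, 9.13 and 5.12 FPKM at 28 d, against 3.26, 1.24 and 3.98 FPKM at 24 h. Selplg, a ligand of selectins, was at 16.5, 14.2 and 12.6 FPKM at 28 d, against 7.65, 3.19 and 8.95 FPKM at 24 h. R24h_T2 was the lowest library for both, below Sham_T at 3.44, 3.94 and 4.12 FPKM and 9.25, 8.18 and 9.97 FPKM. Siglech, a sialic acid receptor of microglia, was at 2.26, 2.87 and 2.45 FPKM in R28d_T, against 1.06, 0.435 and 2.06 FPKM in R24h_T. Outside the homeostatic list, Csf2ra, a GM-CSF receptor subunit, was at 19.2, 18 and 16.6 FPKM at 28 d, against 9.71, 6.97 and 9.81 FPKM at 24 h. It differed by 0.96 ± 0.16 (limma, adjusted p = 0.449, and 0.0405 in the fit over 18 libraries), with Sham_T at 12.3, 13.6 and 11.8 FPKM. Hexa, a lysosomal hexosaminidase, was at 49.0, 36.9 and 21.0 FPKM at 28 d, against 15.0, 19.6 and 16.6 FPKM at 24 h. R28d_T3 was the lowest 28 d library for Csf2ra and Hexa, and no 24 h library reached it. Cst3, the abundant secreted cystatin C and outside the homeostatic list too, averaged 583 ± 82.9 FPKM in the R28d_T libraries and 282 ± 44.0 FPKM in the R24h_T libraries (SD, n = 3 each). The summed level of 12 homeostatic microglia markers was 272, 248 and 134 FPKM in R28d_T, against 157, 110.3 and 152 FPKM in R24h_T, and that of 12 monocyte and macrophage markers was 617, 196 and 20.8 FPKM in R28d_T, against 56.3, 113 and 22.9 FPKM in R24h_T. R28d_T1 was far above the rest for the second list, which Lyz2 leads, and the 2 libraries numbered 3 were the lowest of their times. The part of these cells in the differences was not tested.

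Some astrocyte, oligodendrocyte and matrix genes were also among those higher at 28 d. Of 13 homeostatic astrocyte markers, 2 were higher without overlap (15.4%, against 7.68% of all genes) and none lower. Outside that list, Thbs4, a thrombospondin that astrocytes make after injury, was at 7.81, 11.2 and 4.52 FPKM at 28 d, against 0.834, 1.39 and 1.0 FPKM at 24 h, with Sham_T at 3.31, 2.68 and 3.25 FPKM. The difference was 2.03 ± 0.28 (limma, adjusted p = 0.449, and 0.0405 in the fit over 18 libraries), and the 24 h libraries were below sham. Id4, an inhibitor of bHLH factors in glial progenitors and outside the astrocyte list too, was at 24.4, 18.7 and 15.8 FPKM in R28d_T, against 6.45, 5.14 and 9.48 FPKM in R24h_T. S100b, a calcium-binding protein of astrocytes, was at 118, 110.4 and 70.8 FPKM at 28 d, against 35.5, 59.0 and 61.9 FPKM at 24 h. Sox8, a factor of the oligodendrocyte lineage, was at 14.9, 17.5 and 12.6 FPKM at 28 d, against 4.91, 5.40 and 8.86 FPKM at 24 h. For Id4, S100b and Sox8, R24h_T3 was the highest 24 h library. Of 14 myelin genes, all had a higher mean at 28 d, but the groups were apart for only 1 (7.14%, against 7.68% of all genes). That gene was Mbp, myelin basic protein, at 115, 179 and 91.2 FPKM at 28 d, against 47.5, 75.0 and 77.4 FPKM at 24 h. Of 10 oligodendrocyte precursor genes, 2 were higher without overlap (20%, against 7.68% of all genes) and none lower. C1ql1, a secreted C1q-like protein, was at 5.57, 4.77 and 2.86 FPKM in R28d_T, against 0.677, 1.99 and 2.36 FPKM in R24h_T. Neu4, a sialidase, was at 1.75, 2.22 and 1.56 FPKM at 28 d, against 0.424, 0.540 and 1.54 FPKM at 24 h. Their values at 24 h were lowest in R24h_T1.

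Matrix genes with separate groups included Col11a2, a fibrillar collagen, at 6.01, 4.89 and 3.31 FPKM at 28 d, against 1.21, 0.986 and 1.57 FPKM at 24 h. Prelp, a leucine-rich matrix protein, was at 19.9, 16.5 and 6.42 FPKM at 28 d, against 2.93, 2.80 and 4.31 FPKM at 24 h. Bcan, brevican of the perineuronal matrix, was at 44.0, 44.3 and 44.1 FPKM in R28d_T, against 24.3, 22.6 and 38.0 FPKM in R24h_T, so that the 28 d libraries were nearly equal. Among 191 genes of the GO term extracellular matrix, 16 were higher without overlap (8.38%) and 1 lower (0.524%), near the background for the higher ones. Dio3, which inactivates thyroid hormone, was at 1.20, 1.32 and 1.25 FPKM at 28 d, against 0.0869, 0.0583 and 0.0517 FPKM at 24 h, with Sham_T at 0.851, 0.754 and 0.624 FPKM. The 24 h libraries were close to 0, and the gene met the filter only through the 28 d libraries, so no test is given for it.

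Genes of potassium channels, which set the resting potential and repolarize neurons, were lower more often than higher at 28 d. Of 32 channel genes, 10 were lower without overlap (31.2%, against 6.26% of all genes) and 2 higher (6.25%, against 7.68%), with a median log2 difference of -0.27. In the GO term for voltage-gated potassium channel activity, 15 of 47 genes were lower (31.9%, against 6.26%) and 4 higher (8.51%, against 7.68%). Kcna2, a Kv1 channel of axons, was at 17.8, 15.1 and 16.6 FPKM at 28 d, against 32.2, 25.9 and 23 FPKM at 24 h, with Sham_T at 18.4, 18.1 and 17.5 FPKM. The difference was -0.67 ± 0.16 (limma, adjusted p = 0.484); the 28 d libraries lay near sham and the 24 h libraries above it. Kcnh7, an ether-a-go-go related channel, was at 5.39, 4.81 and 6.11 FPKM at 28 d, against 7.03, 8.45 and 8.68 FPKM at 24 h, and here the Sham_T libraries, at 7.36, 7.79 and 6.31 FPKM, overlapped with 24 h and lay above every 28 d library. Kcnj3, an inwardly rectifying channel opened by G proteins, was at 5.74, 5.99 and 5.59 FPKM in R28d_T, against 11, 7.40 and 7.15 FPKM in R24h_T. Kcnn2, a calcium-activated channel, was 1 of the 2 exceptions, at 3.77, 6.98 and 5.88 FPKM at 28 d, against 3.61, 1.91 and 2.61 FPKM at 24 h.

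Other neuronal genes did not share 1 direction. None of 22 postsynaptic scaffold genes had separate groups, against 7.68% higher and 6.26% lower of all genes. Their means were higher for 14 and lower for 8, with a median log2 difference of 0.07. Of 12 inhibitory neuron markers, 1 was higher (8.33%, against 7.68%) and 1 lower (8.33%, against 6.26%) without overlap, with a median of 0.07. Among the genes that were lower without overlap, Nefm, the medium neurofilament subunit, was at 31.7, 28.4 and 34.4 FPKM at 28 d, against 78.2, 72.2 and 44.6 FPKM at 24 h, with a log2 difference of -0.99 ± 0.22 (limma, adjusted p = 0.484, and 0.0448 in the fit over 18 libraries). Its 28 d libraries were within or near the sham values of 37.3, 37.7 and 31.1 FPKM, and R24h_T1 and R24h_T2 were far above them. Nefh, the heavy subunit, was at 13.3, 12.8 and 12.0 FPKM at 28 d, against 21.3, 27.9 and 16.7 FPKM at 24 h. Rbfox3, the neuronal splicing factor NeuN, was at 42.8, 42.1 and 51.0 FPKM in R28d_T, against 82.3, 63.8 and 60.4 FPKM in R24h_T. Hapln4, a link protein of perineuronal nets, was at 23.6, 24.4 and 23 FPKM at 28 d, against 47.1, 38.4 and 35.0 FPKM at 24 h. R24h_T1 was the highest library for Rbfox3 and Hapln4. Of 23 synaptic vesicle genes, 5 were lower without overlap (21.7%, against 6.26% of all genes) and none higher, among them Snap25, a SNARE of the presynaptic membrane, at 304, 303 and 339 FPKM at 28 d, against 429, 364 and 432 FPKM at 24 h. Vamp1, its vesicle partner, was at 8.62, 9.41 and 12.3 FPKM at 28 d, against 23, 15.1 and 15.0 FPKM at 24 h. Of 28 sodium, calcium and HCN channel genes, 6 were lower (21.4%, against 6.26% of all genes) and 2 higher (7.14%, against 7.68%) without overlap. Of 33 glutamate and GABA receptor genes, 4 were lower (12.1%, against 6.26%) and 2 higher (6.06%, against 7.68%) without overlap. They had 16 higher and 17 lower means and a median log2 difference of -0.01 that was 0.01 with median-ratio scaling. The GABA-A receptor subunit Gabrb2 was at 11.8, 8.38 and 9.34 FPKM in R28d_T, against 13.7, 14.3 and 13.5 FPKM in R24h_T. In the GO term synapse, 48 of 395 genes were lower (12.2%, against 6.26% of all genes) and 23 higher (5.82%, against 7.68%). Tubb3, the neuronal tubulin, was higher, at 148, 127 and 135 FPKM at 28 d, against 86.7, 86.2 and 124 FPKM at 24 h. The direction thus did not hold for every pan-neuronal marker. Of 14, 5 were lower (35.7%, against 6.26% of all genes) and 1 higher (7.14%, against 7.68%) without overlap, so the share of higher ones was near that of all genes. The summed level of the 14 was 1280.3, 1238 and 1295 FPKM in R28d_T, against 1456, 1322 and 1519.9 FPKM in R24h_T.

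**Figure D2:**
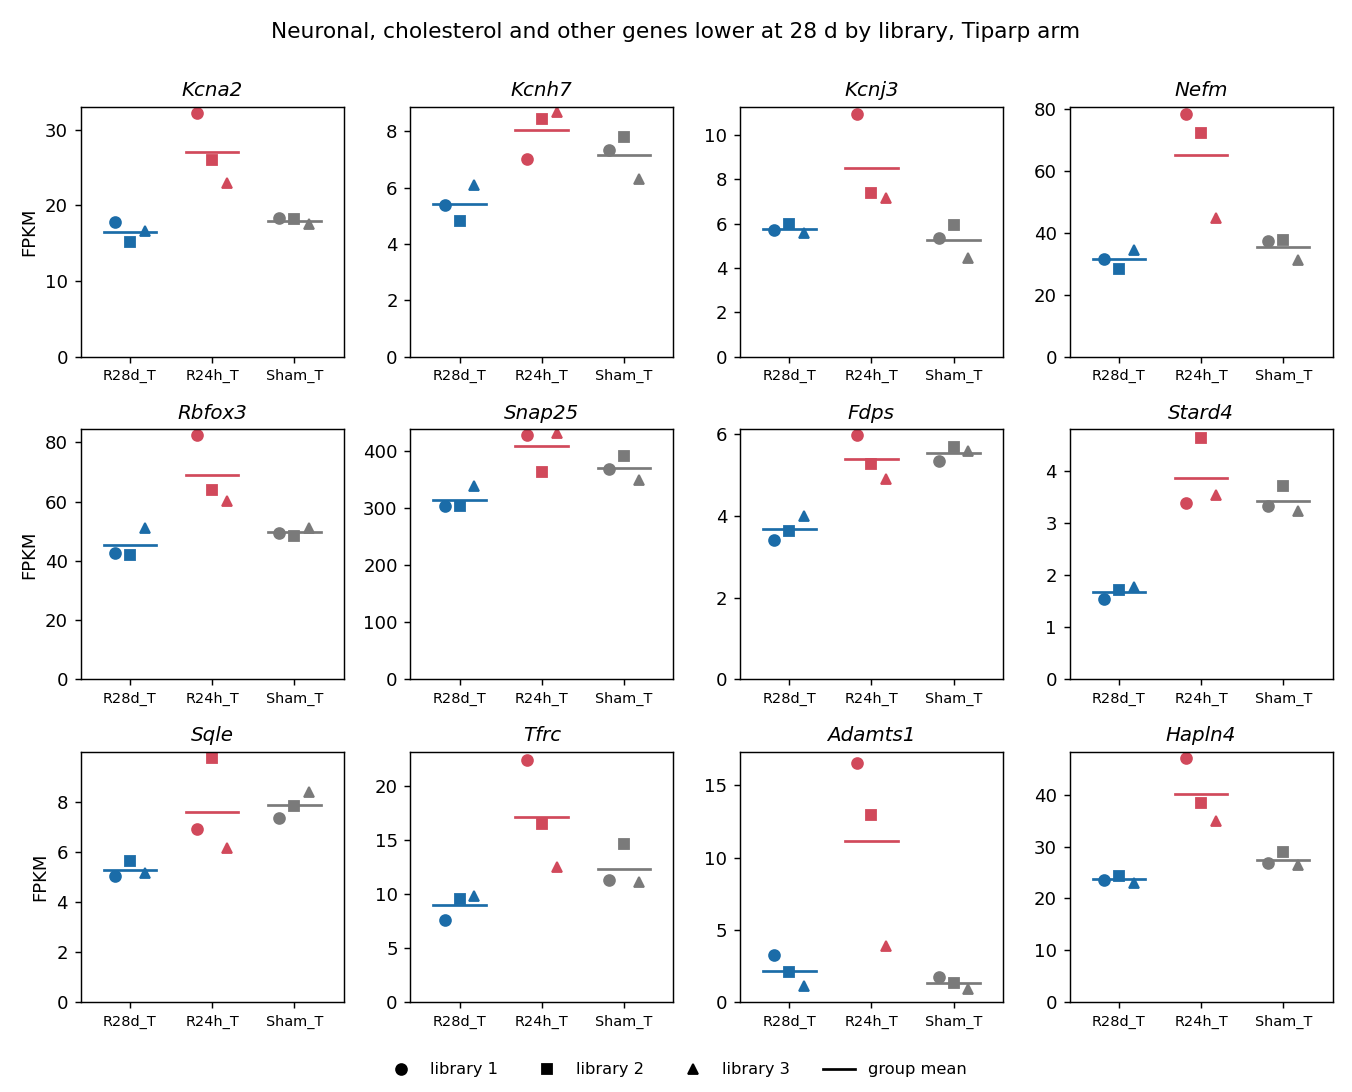
FPKM of 12 genes in each library of the R28d_T, R24h_T and Sham_T groups, with a circle, a square and a triangle for libraries 1, 2 and 3 and the group mean as a line. In each panel the 3 R28d_T points lie below the 3 R24h_T points; for Nefm and Rbfox3 the 28 d points overlap with sham, and for Stard4, Fdps and Sqle they lie below it.

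Of 24 genes of cholesterol synthesis and uptake, 8 were lower at 28 d without overlap (33.3%, against 6.26% of all genes), 15 overlapped, and the 1 higher gene, Apoe, is a carrier rather than an enzyme. In the GO term cholesterol biosynthetic process, 5 of 23 genes were lower (21.7%, against 6.26% of all genes) and 1 higher (4.35%, against 7.68%). Stard4, which moves sterols between membranes, was at 1.54, 1.72 and 1.77 FPKM at 28 d, against 3.40, 4.65 and 3.54 FPKM at 24 h, with Sham_T at 3.34, 3.71 and 3.23 FPKM, and differed by -0.85 ± 0.15 (limma, adjusted p = 0.449). Every 28 d library lay below every sham library, and the 24 h libraries overlapped with sham. Fdps, which makes farnesyl diphosphate, was at 3.40, 3.63 and 4.0 FPKM at 28 d, against 5.99, 5.27 and 4.90 FPKM at 24 h, with Sham_T at 5.34, 5.68 and 5.59 FPKM. Sqle, squalene epoxidase, was at 5.05, 5.65 and 5.17 FPKM in R28d_T, against 6.92, 9.75 and 6.16 FPKM in R24h_T, with Sham_T at 7.35, 7.83 and 8.40 FPKM. For both genes, too, the 28 d libraries lay below sham. Idi1, an isomerase of the early pathway, was at 0.894, 6.39 and 5.05 FPKM at 28 d, against 6.76, 13 and 7.51 FPKM at 24 h, where R28d_T1 was far below the other libraries. The log2 differences of Sqle, Fdps, Fdft1 and Hsd17b7 were -0.43, -0.45, -0.40 and -0.60, and that of Sqle was -0.26 without R24h_T2. Hmgcs1, the synthase at the entry of the pathway, overlapped, at 22.4, 28.0 and 24.0 FPKM at 28 d, against 26.9, 36.8 and 28.6 FPKM at 24 h, and its Sham_T libraries were higher, at 38.1, 51.4 and 37.4 FPKM. The sterol regulatory element TCACNCCAC, in 1.05% of all windows, was found in neither of the 2 lower genes with a window, and in Hmgcs1 alone of the 13 overlapping ones.

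Some vascular and injury genes were lower at 28 d in every pair of libraries. Of 10 endothelial genes, 3 were lower without overlap (30%, against 6.26% of all genes): Cldn5, a tight junction claudin, at 4.47, 2.66 and 2.42 FPKM at 28 d, against 20.7, 4.76 and 4.52 FPKM at 24 h; Flt1, a VEGF receptor, at 1.33, 0.979 and 1.15 FPKM in R28d_T, against 4.07, 1.78 and 1.64 FPKM in R24h_T; and Esam, an adhesion molecule, at 2.12, 1.58 and 1.5 FPKM at 28 d, against 6.81, 2.97 and 2.5 FPKM at 24 h. R24h_T1 was the highest library for each. Adamts1, a secreted protease, was at 3.27, 2.05 and 1.09 FPKM at 28 d, against 16.5, 13 and 3.87 FPKM at 24 h, with Sham_T at 1.75, 1.29 and 0.911 FPKM, and differed by -1.82 ± 0.49 (limma, adjusted p = 0.488, and 0.0470 in the fit over 18 libraries). Ccl12, a monocyte chemokine, was at 4.32, 2.57 and 1.08 FPKM at 28 d, against 8.81, 29.8 and 9.90 FPKM at 24 h. Tfrc, the transferrin receptor, was at 7.56, 9.53 and 9.82 FPKM in R28d_T, against 22.4, 16.5 and 12.5 FPKM in R24h_T. R28d_T3 was the lowest library of all 6 for Adamts1 and Ccl12, and R28d_T1 for Tfrc. Hmox1, heme oxygenase, was at 16.1, 9.06 and 3.13 FPKM at 28 d, against 21.9, 180.0 and 18.6 FPKM at 24 h. Srxn1, another target of NRF2, was at 26.7, 22.8 and 25.6 FPKM at 28 d, against 51.5, 131 and 30.0 FPKM at 24 h; R24h_T2 was far above the other 2 libraries for both. Klf6 and Egln3, an injury-induced factor and an oxygen-sensing hydroxylase, differed by -0.67 ± 0.22 and -0.70 ± 0.22.

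Most genes of the inflammatory and reactive lists overlapped between the times, as did most of all genes tested. None of 22 reactive astrocyte genes, 21 interferon response genes, 15 MHC genes, 16 p53 and apoptosis genes or 7 Fc receptor genes had separate groups. Of all genes, 7.68% were higher and 6.26% lower without overlap. At those shares, few members of lists this short would be separate. Gfap, the astrocyte filament, was at 886, 533 and 96.8 FPKM at 28 d, against 287, 255 and 150.1 FPKM at 24 h. Lcn2, lipocalin 2, was at 97.2, 18.6 and 0.421 FPKM in R28d_T, against 28.4, 15.4 and 2.31 FPKM in R24h_T. Spp1, osteopontin, was at 260.1, 77.6 and 10.6 FPKM at 28 d, against 162, 337 and 11.5 FPKM at 24 h. Timp1, a protease inhibitor, was at 26.1, 4.95 and 1.51 FPKM at 28 d, against 18.2, 29.5 and 5.66 FPKM at 24 h. In these 4 genes library 3 was the lowest at each time. Sham_T values of Spp1 were 5.95, 5.01 and 3.00 FPKM, so that R28d_T3 and R24h_T3 lay nearest to sham and the other 4 libraries far above. Lyz2, lysozyme of macrophages, was at 597, 185 and 17.1 FPKM at 28 d, against 36.2, 51.6 and 17.4 FPKM at 24 h. Hspa1a, an inducible HSP70, was high in R24h_T2 alone, at 3.10, 3.48 and 4.09 FPKM in R28d_T, against 5.56, 209 and 3.91 FPKM in R24h_T. Without R28d_T3 and R24h_T3, a choice made after the data were seen, no gene passed the test either, and the log2 differences became 1.34 for Gfap, 1.0 for Lcn2, -0.71 for Spp1 and 2.92 for Lyz2.

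**Figure D3:**
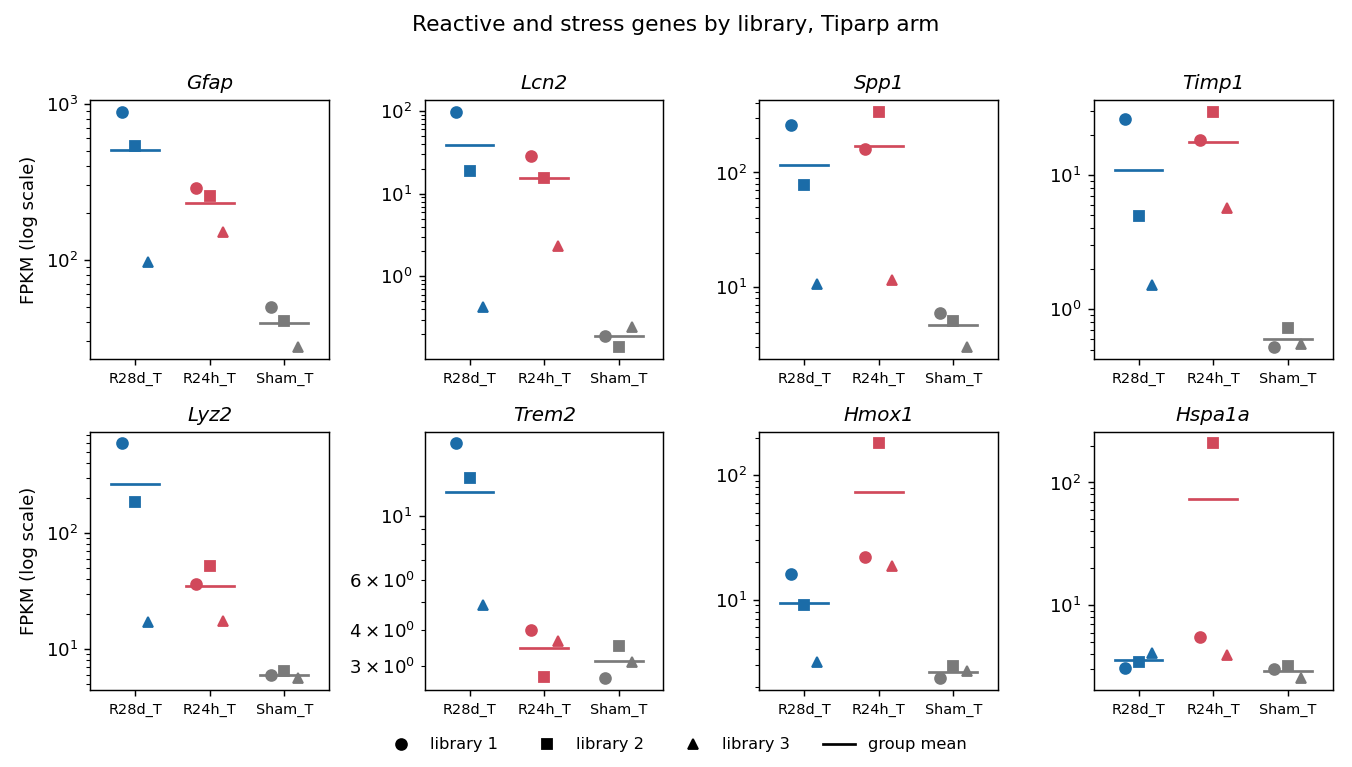
FPKM on a log scale for 8 reactive and stress genes in each library of the R28d_T, R24h_T and Sham_T groups, with a circle, a square and a triangle for libraries 1, 2 and 3 and the group mean as a line. For Gfap, Lcn2, Spp1 and Timp1, R28d_T3 and R24h_T3 are the lowest points of their groups, and Hspa1a is high in R24h_T2 alone.

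The list medians repeat this by library. Relative to Sham_T, disease-associated microglia genes had medians of 2.20, 1.64 and 0.27 in R28d_T1, R28d_T2 and R28d_T3, against 0.74, 1.28 and 0.18 in R24h_T1, R24h_T2 and R24h_T3. Chemokines had medians of 1.90, 1.04 and 0.14 in R28d_T1, R28d_T2 and R28d_T3, against 1.52, 2.88 and 0.49 in R24h_T1, R24h_T2 and R24h_T3. Heat shock genes had medians of 0.22, 0.10 and 0.16 in R28d_T1, R28d_T2 and R28d_T3, against 0.39, 1.82 and 0.10 in R24h_T1, R24h_T2 and R24h_T3, so that R24h_T2 stood alone. Cholesterol genes had medians of -0.58, -0.37 and -0.40 in R28d_T1, R28d_T2 and R28d_T3, against -0.27, 0.05 and -0.21 in R24h_T1, R24h_T2 and R24h_T3, with each 28 d library below each 24 h library. Of 30 proteasome genes, 29 had a lower mean at 28 d, and 3 were lower without overlap (10%, against 6.26% of all genes). Their median relative to Sham_T was -0.03 in R24h_T3, against 0.35 in R24h_T1 and 0.55 in R24h_T2.

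**Figure D4:**
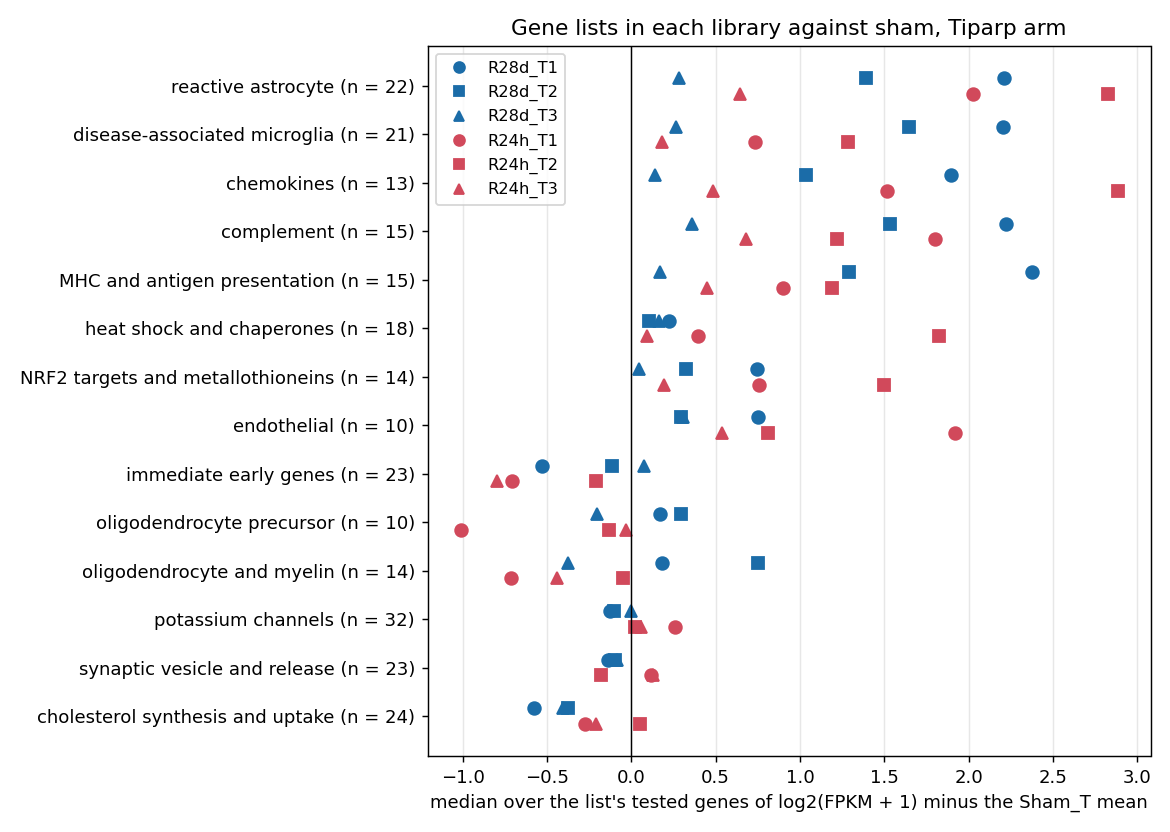
Median over the tested genes of each list of log2(FPKM + 1) minus the Sham_T mean, for each library, with 28 d in blue, 24 h in red and a circle, a square and a triangle for libraries 1, 2 and 3. Library 3 of each time is the lowest of its time for the astrocyte, disease-associated microglia, chemokine, complement and MHC lists, and the 3 blue points of cholesterol synthesis lie left of the 3 red ones.

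The same interval in the control arm is given beside these values. Over the same 13824 genes, 1427 were higher at 28 d without overlap in the control arm (10.3%) and 3731 lower (27%). Of the 1062 genes higher in the Tiparp arm, 304 (28.6%, against 10.3% of all genes) were also higher without overlap in the control arm and 55 (5.18%, against 27%) were lower, and 69.0% had the same sign. Of the 866 lower genes, 264 (30.5%, against 27%) were also lower and 23 (2.66%, against 10.3%) higher, and 68.1% had the same sign. The 30.5% is thus close to the share of all genes lower in the control arm. The share of all genes with the same sign in both arms is not given. The direct test, the difference of the differences over 12 libraries, passed for none of 14756 genes (0%, limma, lowest adjusted p = 0.506). At an unadjusted p under 0.05, 1118 were positive (7.58%) and 307 negative (2.08%), a split that became 854 to 609 with median-ratio scaling and 654 to 675 without mitochondrially encoded genes. Effects of the 2 arms are therefore set side by side and not called different.

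Immediate early and cholesterol genes had medians of the same sign in both arms: 0.43 in the Tiparp arm and 0.32 in the control arm for immediate early genes, and -0.27 in the Tiparp arm and -0.46 in the control arm for cholesterol genes. Potassium channel genes did not, with a median of -0.27 in the Tiparp arm and 0.25 in the control arm. In the control arm 1 of the 32 was lower and 9 higher without overlap, against 27% lower and 10.3% higher of all genes there. Of the 32, 10 had a negative difference between arms at an unadjusted p under 0.05, and none a positive one. Other lists described above had opposite signs too. Disease-associated microglia genes had a median of 0.42 in the Tiparp arm and -0.59 in the control arm. Of the 21 genes, 1 was higher and 7 lower without overlap in the control arm. Of all genes, 10.3% were higher and 27% lower there, so lower genes were common in that arm in general. Medians in the same order were -0.13 and 0.34 for synaptic vesicle genes and -0.14 and 0.17 for pan-neuronal markers. Homeostatic microglia markers kept their sign, at 0.64 and 0.51. Kcnc1, a channel of fast-spiking neurons, was at 14.5, 13.7 and 15.3 FPKM at 28 d, against 18.3, 19.9 and 18 FPKM at 24 h, with the control arm at 17.8, 16.2 and 18.7 FPKM in the R28d_C libraries, against 15.9, 14.4 and 12.0 FPKM in the R24h_C libraries. The groups were apart in opposite directions, and the difference between arms was -0.65 ± 0.16 (limma, adjusted p = 0.506). Cytosolic ribosomal protein genes had a median of 0.02 in the Tiparp arm, which became -0.01 without mitochondrially encoded genes, and -0.52 in the control arm, and 17 of 28 had a positive difference at an unadjusted p under 0.05. Rplp1, of the ribosomal stalk, was at 452, 629 and 569 FPKM at 28 d, against 356, 349 and 352 FPKM at 24 h, with the control arm at 319, 419 and 415 FPKM in the R28d_C libraries, against 572, 475 and 757 FPKM in the R24h_C libraries; the difference between arms was 1.26 ± 0.27 (limma, adjusted p = 0.506). Ribosomal protein genes have many near-identical pseudogenes, between which reads can be split. Synpo, synaptopodin of dendritic spines, overlapped in the Tiparp arm, at 20.2, 11.1 and 21.1 FPKM at 28 d, against 9.43, 14.7 and 17.6 FPKM at 24 h, and was at 28.3, 18.1 and 23.8 FPKM in the R28d_C libraries, against 4.82, 5.88 and 5.04 FPKM in the R24h_C libraries; the difference between arms was -1.65 ± 0.37 (limma, unadjusted p = 0.00102, adjusted p = 0.506). The lowest p of this test belonged to Calu, a calcium-binding protein of the endoplasmic reticulum, with a difference between arms of 1.5 ± 0.26, Avp, vasopressin, with 1.80 ± 0.32 at 0.689, 2.08 and 1.24 FPKM in R28d_T, against 0.05, 0.737 and 0.144 FPKM in R24h_T, and Gm12751, with 0.88 ± 0.17.

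**Figure D5:**
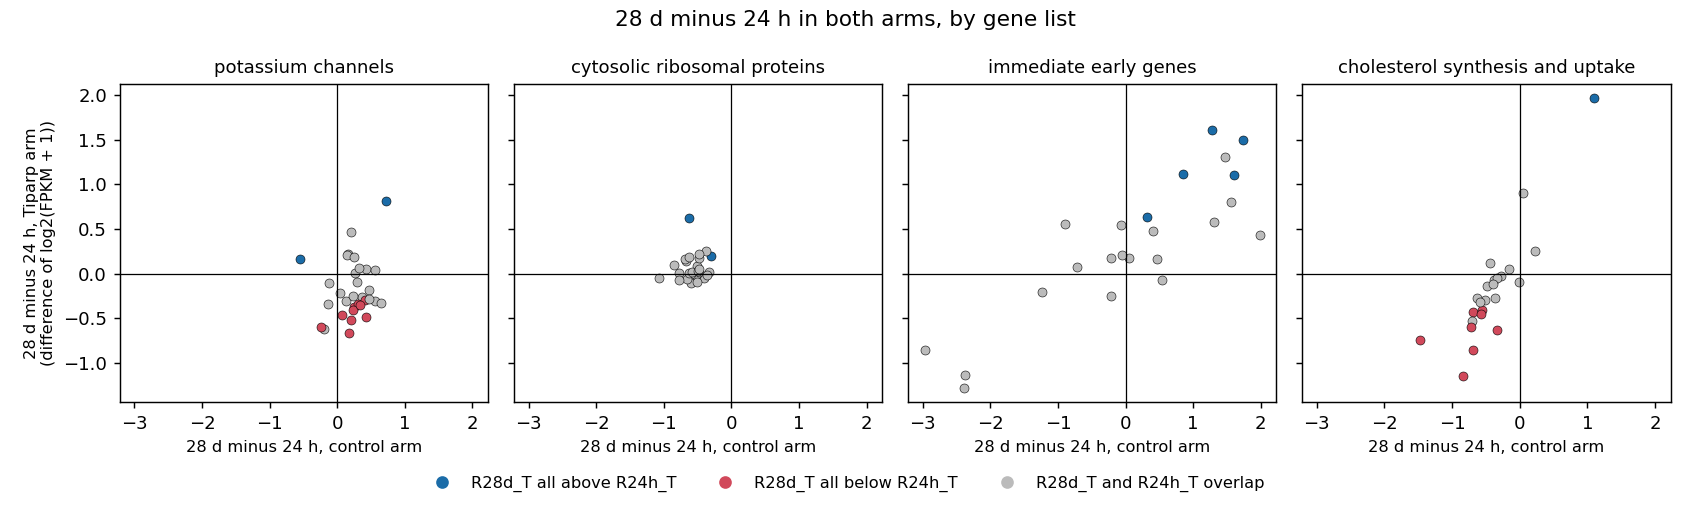
Difference of log2(FPKM + 1), 28 d minus 24 h, in the Tiparp arm (vertical) against the control arm (horizontal), 1 point per gene of 4 lists, coloured by whether the R28d_T and R24h_T libraries overlapped. Potassium channel points lie mostly below and right of the origin, ribosomal protein points left of it near 0 on the vertical axis, immediate early genes without overlap at upper right, and cholesterol points mostly at lower left.

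Against sham, 28 d in the Tiparp arm differed for 2 of 13544 genes (0.0148%, limma, adjusted p under 0.05). Srgap3, a GTPase-activating protein of neurite growth, had 35.1, 35.2 and 35.3 FPKM at 28 d, against 9.75, 7.73 and 8.44 FPKM in the Sham_T libraries (log2 difference 1.91, adjusted p = 0.00359). At 24 h the values were 43.6, 9.51 and 38.6 FPKM, so that the R24h_T2 library stood with sham. A second entry of Map2k7, ENSMUSG00000109061, was at 0.237, 0.330 and 0.0621 FPKM at 28 d, against 5.96, 3.49 and 4.85 FPKM in Sham_T (log2 difference -2.24, adjusted p = 0.0455). It overlaps on the same strand with the first Map2k7 entry, so reads of both cannot be told apart. The 28 d libraries without R28d_T3 gave 568 such genes, 512 higher and 56 lower. Among the lowest p of 28 d against 24 h were genes whose sham libraries lay at 2 levels. Dnal1, a dynein light chain, was at 1.77, 3.28 and 3.25 FPKM at 28 d, against 11.1, 9.53 and 14.7 FPKM at 24 h, with Sham_T at 2.01, 13.9 and 1.66 FPKM, and its sham libraries spanned both times. Golph3l, a Golgi protein, was at 2.31, 3.50 and 1.58 FPKM at 28 d, against 7.35, 6.83 and 6.38 FPKM at 24 h, with Sham_T at 5.49, 5.82 and 1.26 FPKM, where 1 sham library stood with 28 d. Gm28036 and Gm25540, with values at or below 2.80 FPKM in these libraries, overlap with other genes on the same strand and are uncertain.

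The rest of the 15 lowest p in each direction were mostly genes of low level. Higher at 28 d were Rin2, an exchange factor of endosomal RAB5, at 8.55, 8.83 and 9.05 FPKM at 28 d, against 4.39, 4.90 and 4.73 FPKM at 24 h. Traip, a ubiquitin ligase of DNA replication, was at 2.23, 3.14 and 2.70 FPKM in R28d_T, against 0.920, 1.06 and 1.16 FPKM in R24h_T. Their log2 differences were 0.79 ± 0.12 and 0.84 ± 0.15, with Sham_T at 5.33, 3.94 and 5.08 FPKM for Rin2 and 2.57, 1.92 and 3.68 FPKM for Traip, so that the 28 d libraries lay above sham for Rin2 and overlapped with it for Traip. The noncoding 1700047M11Rik was at 4.70, 6.48 and 3.32 FPKM at 28 d, against 1.17, 1.23 and 1.14 FPKM at 24 h. Zfp658, a zinc finger protein, and Gm1604a had log2 differences of 0.73 and 0.80, and Fam198a met the filter only through the 28 d libraries. Mb, myoglobin, was at 4.54, 7.97 and 7.83 FPKM at 28 d, against 2.43, 2.51 and 2.55 FPKM at 24 h, but its Sham_T libraries, at 8.63, 0.275 and 0.253 FPKM, lay at 2 levels on either side. Lower at 28 d were Ndufaf4, an assembly factor of respiratory complex I, at 1.62, 1.37 and 1.49 FPKM at 28 d, against 3.79, 6.51 and 4.58 FPKM at 24 h, with Sham_T at 1.40, 1.43 and 1.72 FPKM, and Tmem132d, a membrane protein, at 5.93, 5.33 and 6.94 FPKM in R28d_T, against 13.4, 10.1 and 10.9 FPKM in R24h_T, with Sham_T at 8.39, 10.2 and 8.63 FPKM. For Ndufaf4 the 28 d libraries overlapped with sham, and for Tmem132d they lay below it. Ikbkg, the NEMO subunit of the kinase that activates NF-kB, was at 2.22, 1.85 and 1.57 FPKM at 28 d, against 4.18, 3.81 and 3.62 FPKM at 24 h. Mkx, a homeobox factor of tendon, was at 1.98, 2.05 and 1.77 FPKM at 28 d, against 3.88, 3.92 and 4.16 FPKM at 24 h. Krt12, a keratin known from the cornea, was at 2.95, 2.37 and 3.67 FPKM at 28 d, against 8.01, 5.88 and 6.10 FPKM at 24 h. Ankrd34c had a log2 difference of -0.89. Nppa, Chn1os1 and Mir7075, like Gm25540 and Gm28036, met the filter only through the 24 h libraries, and no difference is given for them. Mir7075 lies on the strand of Terf2 and Chn1os1 opposite to Chn1. Of the 99 named genes, 14 overlap with another gene model on the same strand, among them Rbfox3, Rin2, Padi2, Golph3l, Kcnh7, Fdps, Spp1, Fam198a, Tmem132d and Igkc, and 32 more with one on the other strand only, among them Tiparp, Dbp, Arntl, Nefm, Gfap, Snap25, Mbp, Timp1 and S100b. The libraries were stranded, but whether counting used strand is not given, so values of these genes may hold reads of the other.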

How the data were processed

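RNA-seq of ipsilateral cortex was deposited by the authors as FPKM per gene for 37319 genes. Per the submitters' processing notes, HISAT, StringTie and edgeR were used with build mm9, with no versions given; whether counting used strand is not given in the sources used here. A gene entered a fit where 3 or more of its libraries reached 1 FPKM, and was tested on log2(FPKM + 1) with limma 3.58.1 (trend, empirical Bayes, two-sided) in R 4.3.3, with p adjusted over all genes tested at 0.05. The pseudocount of 1 shrinks differences of low genes. Counts of separate groups compare FPKM directly. The members, lists and tests were chosen with earlier results of these data known. Named genes were the 15 lowest p each way, the 2 lowest p of each of 52 lists, the 3 lowest p of the other comparisons and Tiparp, and of these a part is printed, since some items are not reported here; others, such as Kcnc1, Spp1, Trem2 and Synpo, were chosen after their values were seen. There were 62 repeated symbols, and the entry with the highest mean was used. Promoter windows came from RefSeq tables (GRCm38.p6), and gene models of another build, which matched 99.7% of IDs, served to find overlapping genes. The code was tested on simulated data. Python 3.11.15 and matplotlib 3.10.9 drew the figures. The fits were repeated without the filter, at a pseudocount of 0.1, with median-ratio scaling, with FPKM rescaled without mitochondrially encoded genes, with array weights, with a replicate block, over all 18 libraries together and with libraries left out.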

Additional observations from a re-analysis of the deposited data

Results flagged for a closer look

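For Rplp1 every 28 d library lay above every 24 h library in the Tiparp arm and below every 24 h library in the control arm, with the values given above. The difference between the arms was 1.26 on the log2 scale and did not pass the adjusted test (limma, adjusted p = 0.506). Kcnc1 was apart in opposite directions in the 2 arms too, lower at 28 d in the Tiparp arm, and the difference was -0.65 (limma, adjusted p = 0.506). Only named genes were searched for this, and Kcnc1 was chosen after its values were seen. Among all genes tested, 55 of the 1062 higher and 23 of the 866 lower genes of the Tiparp arm were apart in the opposite direction in the control arm.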

How the results depend on the processing

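The count of genes that passed between 28 d and 24 h was 0 under every alternative, also with each library left out (0 to 0), except in the fit over all 18 libraries, with 97 genes (74 higher, 23 lower). For the difference between the arms it was 0, and 0 with each library left out (0 to 0), except for 1 gene with no filter and 272 with array weights (228 positive, 44 negative). For 28 d against sham the main count of 2 became 1 with a pseudocount of 0.1, 1 with no filter, 1 with median-ratio scaling, 0 in the fit over 18 libraries, 2407 with array weights (1717 higher, 690 lower) and 0 to 568 with each library left out, where 568 is without R28d_T3. Array weights were estimated from the same libraries. The log2 difference of Tiparp, near 0, was 0.011 with median-ratio scaling and -0.16 to 0.14 with each library left out, so its sign is not settled. Lcn2 was at -0.055 with a pseudocount of 0.1, and Synpo at -0.078 with array weights. Leaving out 1 library turned the sign for Lcn2 (-1.15 to 1.91), Spp1 (-1.92 to 0.70), Igkc (-0.33 to 4.32) and Srgap3 (-0.22 to 0.83). Counted as pairs of a named gene and an alternative fit, 732 kept their sign and their side of the threshold, and 25 passed it under the fit over 18 libraries. These pairs include the fit without R28d_T3 and R24h_T3, which was chosen after the data were seen. Among the pairs with 1 library left out, 546 kept both and 6 turned their sign. The cause of these changes was not tested. Libraries that share a number were not paired by the labels, and the correlations of their deviations from the group means, 0.01, 0.01 and 0.24, gave no pairing, so the replicate block was an alternative; it left 0 genes between the times, 0 between the arms and 0 against sham. Depth is known roughly, so no counting error is given, and low genes are the least precise.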
